A study of Mus musculus with 6 samples.

Results

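Replication-dependent histone genes encode the core histones H2A, H2B, H3 and H4 that a cell makes while it copies its DNA. They were taken from the mouse array as every probe, control probes aside, whose transcript accession carries a RefSeq symbol beginning with H2ac, H2bc, H3c or H4c and a digit. The rule also takes current symbols of the older Hist1h to Hist4h form, and the table used held none on a probe. The rule found 43 of 56605 probes, for 39 of the 23462 genes that a probe could be named for, with 13 H2A, 13 H2B, 7 H3 and 10 H4 probes. Of the 59 genes that the RefSeq table lists under these symbols, 20 had no probe. H2bc3, H2bc21, H4c4 and H4c12 had a pair of probes each.

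Microglia, the resident macrophages of the brain, were enriched on Percoll from young mice and sorted as CD45low CD11b+ Cx3cr1+ cells. The 3 control samples, B41HET, were Bhlhe41 dTomato-Cre/+ and the 3 knockout samples, B41KO, were Bhlhe41 dTomato-Cre/dTomato-Cre, on a C57BL/6 background and without treatment. The allele places a dTomato-2A-Cre cassette with its own poly(A) signal ahead of the Bhlhe41 start codon, so both groups carried the reporter and Cre, the control was heterozygous, and no wild type was on the arrays. According to the Methods each sample was a pool of several mice, whereas the labels speak of 3 mice per genotype, so the p-values measure the spread between these 3 samples per group. Bhlhe41 is a transcriptional repressor that binds E-boxes, and the question put to the arrays was which genes change in microglia without it.

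Core histones pack DNA into nucleosomes, each built from an H3-H4 tetramer and H2A-H2B dimers. Their replication-dependent genes lie in clusters, are transcribed mainly in S phase under NPAT, and give short mRNAs without introns that end in a stem-loop bound by SLBP in place of a poly(A) tail. A few of them also give polyadenylated forms in cells that have stopped dividing, where histone supply otherwise comes from replication-independent variants such as H3.3. Adult microglia divide slowly. The labelling kit primes from poly(A) tails, so on these arrays the histone signal depends on transcripts that such priming reaches, and how much of each transcript that was could not be told apart from its level. Fewer cells of a type and less RNA per cell cannot be told apart either. Copies within a histone class are close to identical in sequence and the probe sequences were not used here, so that a probe may also report related copies.

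Promoters of 34 of the 39 genes were found in a RefSeq table (GRCm38.p6, 250 bases before to 50 after each start). Those of 5 genes are shown because their probes were the subject of calls described below, with H2B promoters that hold an octamer, one that does not, and an H4 promoter. Capitals mark the octamer ATTTGCAT, CCAAT and TATAAA on either strand.
H2bc14, chr13:21721794-21722093, plus strand: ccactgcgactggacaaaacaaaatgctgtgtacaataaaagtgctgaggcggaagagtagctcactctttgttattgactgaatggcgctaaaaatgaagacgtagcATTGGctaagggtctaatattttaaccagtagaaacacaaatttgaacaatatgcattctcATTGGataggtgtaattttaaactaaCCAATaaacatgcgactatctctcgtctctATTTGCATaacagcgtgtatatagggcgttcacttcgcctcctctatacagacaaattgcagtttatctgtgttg
H2bc3, chr13:23746484-23746783, plus strand: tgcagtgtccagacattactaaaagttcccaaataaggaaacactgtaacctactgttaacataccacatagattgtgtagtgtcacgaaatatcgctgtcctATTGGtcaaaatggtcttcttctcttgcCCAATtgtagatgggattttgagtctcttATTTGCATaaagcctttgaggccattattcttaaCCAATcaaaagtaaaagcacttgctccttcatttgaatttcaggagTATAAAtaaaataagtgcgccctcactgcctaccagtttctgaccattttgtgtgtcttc
H2bc1, chr13:23934107-23934406, minus strand: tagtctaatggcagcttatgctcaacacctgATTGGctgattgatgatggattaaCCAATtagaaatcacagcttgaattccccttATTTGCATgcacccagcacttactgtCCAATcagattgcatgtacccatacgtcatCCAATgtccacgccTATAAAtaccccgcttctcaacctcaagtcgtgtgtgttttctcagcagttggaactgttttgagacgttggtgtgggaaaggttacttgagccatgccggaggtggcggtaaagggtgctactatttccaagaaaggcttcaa
H2bc15, chr13:21753826-21754125, plus strand: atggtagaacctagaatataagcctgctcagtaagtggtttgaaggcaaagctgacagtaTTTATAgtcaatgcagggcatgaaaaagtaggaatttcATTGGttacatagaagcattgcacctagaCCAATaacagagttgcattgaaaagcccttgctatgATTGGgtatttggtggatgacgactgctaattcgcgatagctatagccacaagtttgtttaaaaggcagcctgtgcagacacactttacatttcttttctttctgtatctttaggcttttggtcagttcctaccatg
H4c4, chr13:23581318-23581617, plus strand: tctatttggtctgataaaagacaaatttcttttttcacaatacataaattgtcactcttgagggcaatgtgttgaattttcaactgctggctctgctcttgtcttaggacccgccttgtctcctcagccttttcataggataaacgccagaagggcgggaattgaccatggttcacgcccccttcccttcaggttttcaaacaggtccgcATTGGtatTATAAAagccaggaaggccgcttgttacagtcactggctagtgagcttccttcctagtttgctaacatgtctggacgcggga
The octamer is the site of POU factors such as Pou2f1 and is a known element of H2B promoters. It was found for 9 of the 34 genes, 5 of 9 for H2B and 4 of 13 for H2A, and in 1.74% of all 32851 promoters of the table. Histone promoters are counted here by gene and all promoters by window. H2bc6 had a second window, and a gene counted when any of its windows held the motif. CCAAT was found in 29 of 34 against 37.4% of all promoters, and TATAAA in 20 of 34 against 13.6%. CCAAT was found for every one of the 13 H2A, 9 H2B and 5 H3 genes and for 2 of the 7 H4 genes. The E-box CACGTG, which Bhlhe41 and its relatives bind, was found in 0 of 34 and in 7.15% of all promoters. Among the 6 called genes with a promoter in the table, 3 held the octamer, 6 CCAAT and 5 TATAAA. These matches describe the letters of the windows and nothing more.

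Histone signal was lower in B41KO than in B41HET microglia at most of these probes, mostly by less than 0.5 on the log2 scale. A probe was called when limma gave it a Benjamini-Hochberg adjusted p of 0.05 or less over all probes tested and a log2 fold change of at least 0.5 in size. Of the 43 probes, 9 were called lower in B41KO, where 3.34% of all 56601 probes tested were called lower, and 0 were called higher, where 1.72% of all probes were. At an unadjusted limma p under 0.05, 31 were lower, against 12.1% of all probes, and 1, H4c8, was higher, against 11%. The 9 probes belong to 8 genes, H2ac7, H2bc1, H2bc3 (both of its probes), H2bc4, H2bc14, H2bc15, H3c7 and H4c4. A further 6 probes passed the adjusted p with a smaller fold change.

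The fitted change was below 0 at 39 of the 43 probes, compared with 47.3% of all probes. In 34 of the 43 every B41KO sample lay below every B41HET sample, compared with 15.2% of all probes, and 1 probe, H4c8, lay the other way round. The median log2 fold change of the 43 probes was -0.32, against 0.02 over all probes. The share of calls rises with signal, so the 28 histone probes well above background on all 6 arrays with a mean log2 signal of 8 or more were also set beside the 12885 probes of that kind. All 28 were fitted below 0, against 47.1% of those probes, 27 of them did not overlap between the groups, against 26.3%, and 7 were called lower, against 6.01%. Their median was -0.32, against 0.02.

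**Figure D1:**
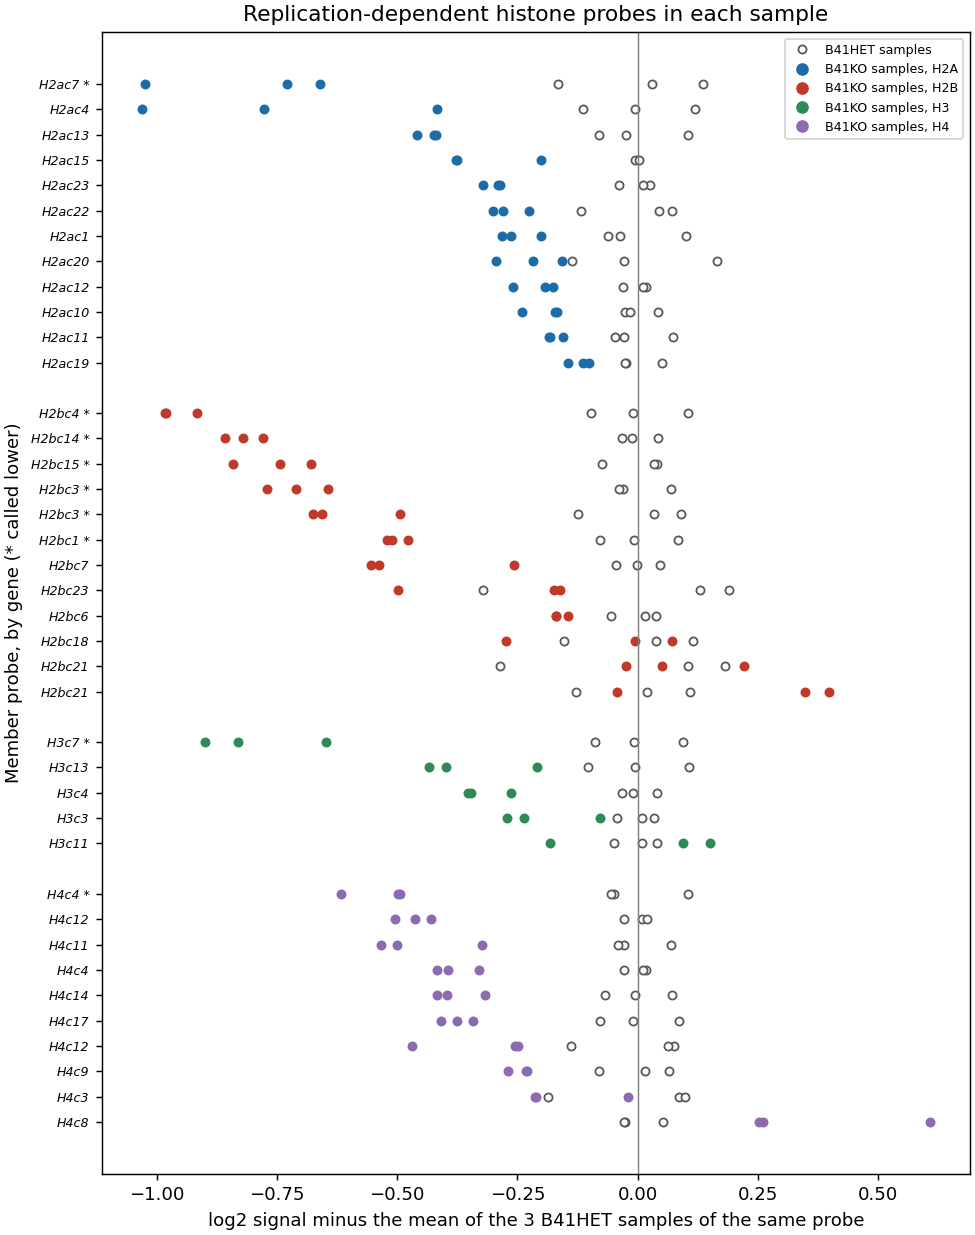
Each row is one of the 39 histone probes well above background on all 6 arrays, and each point is a sample, plotted as its log2 signal minus the mean of the 3 B41HET samples for that probe (open circles B41HET, filled circles B41KO, coloured by histone class, asterisks marking called probes). The B41KO samples lie to the left of the B41HET samples without overlap in 32 of the 39 rows, and to their right at H4c8. Over all probes tested, 15.2% lie to the left in this way.

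The shift was present in each B41KO sample. Over the 39 probes well above background on all arrays, the median deviation from the B41HET mean was 0.01, 0.01 and -0.03 in B41HET replicates 1 to 3, and -0.27, -0.37 and -0.34 in B41KO replicates 1 to 3. The groups did not overlap in this median. All 6 arrays lay on 1 slide, with the B41HET arrays and B41KO replicate 1 in its first row and B41KO replicates 2 and 3 in its second. Within the first row, B41KO replicate 1 lay below the B41HET mean at 36 of the 39 probes and below every B41HET sample at 34. Because the second row held B41KO arrays only, a fit with the slide row as a block compares B41KO replicate 1 alone with the B41HET samples and assumes that this lone sample varies like the others. Its median was -0.27. None of the 9 probes passed the adjusted p in it, with changes of -0.86 at H2bc14, -0.98 at H2bc4 and -1.03 at H2ac7. The only histone probe called was that of H2ac21 (adjusted p = 0.0154), which in B41KO replicate 1 gave 0.99, below the lowest signal well above background on that array (2.99). With 3 samples against 3, the smallest p of a two-sided exact permutation test of a single probe is 0.1.

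The number of calls depended on single libraries. It was 5 without B41HET replicate 1, 2 without B41HET replicate 2, 4 without B41HET replicate 3 and 4 without B41KO replicate 2. Without B41KO replicate 1 it was 7 and without B41KO replicate 3 it was 6. The median of the 39 probes ranged from -0.36 to -0.29 over these 6 settings.

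H2B, which pairs with H2A in the nucleosome, held 6 of the 9 calls, from 13 probes, where 3.34% of all probes were called lower. The difference in calls between histone classes was not tested. H2bc14 gave log2 signals of 12.46, 12.54 and 12.48 in B41HET and 11.64, 11.67 and 11.72 in B41KO. The gap between the groups was 0.75 on the log2 scale, and the fitted change was -0.82 ± 0.07 (SE, adjusted p = 0.00514). Its promoter, shown above, holds the octamer close to the start.

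H2bc15 gave 11.96, 11.95 and 11.84 in B41HET and 11.24, 11.17 and 11.08 in B41KO. This was a change of -0.75 ± 0.08 (SE, adjusted p = 0.00945). No B41KO sample reached the lowest B41HET sample, and the octamer was not found in its promoter window.

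H2bc3 was measured by a pair of probes, both of which fell. The first gave 10.51, 10.61 and 10.51 in B41HET and 9.90, 9.77 and 9.83 in B41KO (-0.71 ± 0.07, SE, adjusted p = 0.00942). The second gave 11.90, 11.84 and 11.68 against 11.15, 11.31 and 11.13 (-0.61 ± 0.09, SE, adjusted p = 0.0248). The groups did not overlap at either probe.

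H2bc4 had the largest called change among the histone probes. Its values were 7.24, 7.03 and 7.12 in B41HET and 6.15, 6.21 and 6.15 in B41KO, a change of -0.96 ± 0.08 (SE, adjusted p = 0.00548) that corresponds to 1.95-fold lower signal. The RefSeq gene spans 8282 bases, longer than most histone genes.

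H2bc1 encodes an H2B known from the male germ line, and its divergent neighbour H2ac1 the matching H2A. The H2bc1 probe gave 11.80, 11.71 and 11.64 in B41HET and 11.21, 11.20 and 11.24 in B41KO (-0.50 ± 0.07, SE, adjusted p = 0.0211). That is at the fold threshold, and the call was lost under 11 of 15 other settings. Whether its signal came from a near-identical H2B copy was not tested.

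The remaining H2B probes were not called. H2bc7 had a fitted change of -0.45 (adjusted p = 0.0651) without overlap between the groups, and H2bc6 one of -0.16 (adjusted p = 0.222). At H2bc18, H2bc23 and the pair of H2bc21 probes the groups overlapped, with fitted changes of -0.07, -0.28, 0.08 and 0.23. The transcript of H2bc21 is known to occur in a polyadenylated form in cells that no longer divide. The RefSeq gene spans more than 1000 bases for 5 probes well above background, those of H2bc4, H2bc6, H2bc21 and H2bc23, and 1 of these was called, with a median of -0.16. For the 34 probes of shorter genes 8 were called, with a median of -0.34. Of all probes, 3.34% were called lower. H2bc22 was not well above background in any of the 6 samples.

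H2A changes all pointed the same way. At all 13 probes every B41KO sample lay below every B41HET sample, and 1 probe, H2ac7, was called. Over all probes 15.2% lay so and 3.34% were called lower. For probes well above background with a mean log2 signal of 8 or more these shares were 26.3% and 6.01%. H2ac7 gave 6.87, 6.76 and 6.57 in B41HET and 5.71, 6.07 and 6.005 in B41KO, a change of -0.80 ± 0.13 (SE, adjusted p = 0.0296). The lowest B41KO value was in replicate 1.

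Among the 12 H2A probes well above background on all arrays, the median change was -0.26. H2ac13 passed the adjusted p (0.0343) with a change of -0.43. H2ac4 gave 5.13, 5.36 and 5.23 in B41HET and 4.82, 4.46 and 4.21 in B41KO, a fitted change of -0.74 that missed the threshold (adjusted p = 0.0649). H2ac12, the H2A probe with the strongest signal, gave 14.11, 14.10 and 14.06 against 13.91, 13.83 and 13.90 (-0.21, adjusted p = 0.133). The other 8 lay between -0.32 and -0.12. H2ac21 was well above background on the 3 B41HET arrays and on 1 B41KO array, with values of 3.43, 3.60 and 3.67 against 0.99, 2.60 and 2.52 (adjusted p = 0.113).

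H2A and H2B genes often lie head to head on opposite strands and share the stretch between them. The RefSeq table holds 9 such pairs within 1000 bases among these genes, with 163 to 280 bases between them, and 5 had a probe on each side. At H2ac15 and H2bc15 the changes were -0.32 (adjusted p = 0.0764) and -0.75, the latter called. At H2ac1 and H2bc1 they were -0.25 (adjusted p = 0.128) and -0.50, the latter called. At H2ac7 and H2bc7 they were -0.80 and -0.45, and here the H2A gene was the called one. At H2ac23 and H2bc23 they were -0.30 (adjusted p = 0.0535) and -0.28 (adjusted p = 0.421). At H2ac22 the change was -0.27 (adjusted p = 0.119), with H2bc22 below background. In the 4 pairs with both neighbours well above background, both had a fitted change below 0, and the difference between neighbours was not tested.

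H3 forms the tetramer with H4 and carries many of the marked lysines of chromatin. H3c7 was called, with 10.55, 10.63 and 10.73 in B41HET and 9.99, 9.80 and 9.74 in B41KO (-0.79 ± 0.10, SE, adjusted p = 0.014). No other H3 probe passed the adjusted p. H3c4, the H3 probe with the strongest signal, gave 13.74, 13.76 and 13.81 against 13.42, 13.42 and 13.50 (-0.32, adjusted p = 0.0527). The groups did not overlap at H3c4, H3c13 (-0.35) and H3c3 (-0.20), and they overlapped at H3c11 (0.02). H3c1 was well above background on 3 B41HET arrays and 1 B41KO array, with 3.99, 4.25 and 3.47 against 2.05, 3.50 and 2.57 (adjusted p = 0.155). H3c8 was not well above background in any of the 6 samples.

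H4 is encoded by many genes for the same protein. Of 10 H4 probes, 6 passed the adjusted p. Of these 1, a probe of H4c4, reached the fold threshold, where 3.34% of all probes were called lower. It gave 11.51, 11.36 and 11.35 in B41HET and 10.91, 10.91 and 10.79 in B41KO (-0.54 ± 0.08, SE, adjusted p = 0.0245). The other H4c4 probe gave 11.00, 11.00 and 10.96 against 10.66, 10.59 and 10.57 (-0.38 ± 0.07, SE, adjusted p = 0.0328). The probes of H4c4 thus differed in call and not in direction.

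The other H4 probes past the adjusted p were 1 of H4c12 (-0.47, adjusted p = 0.0193), H4c11 (-0.45, adjusted p = 0.042), H4c14 (-0.38, adjusted p = 0.0445) and H4c17 (-0.38, adjusted p = 0.0452). H4c14 was the H4 probe with the strongest signal, at 12.03, 11.89 and 11.95 in B41HET and 11.64, 11.56 and 11.54 in B41KO. The second H4c12 probe (-0.32), H4c9 (-0.24) and H4c3 (-0.15) did not pass. H4c8 stood apart. It gave 7.64, 7.64 and 7.72 in B41HET and 7.93, 7.92 and 8.28 in B41KO, above the B41HET samples in every B41KO sample, with a change of 0.37 ± 0.12 (SE, adjusted p = 0.132).

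**Figure D2:**
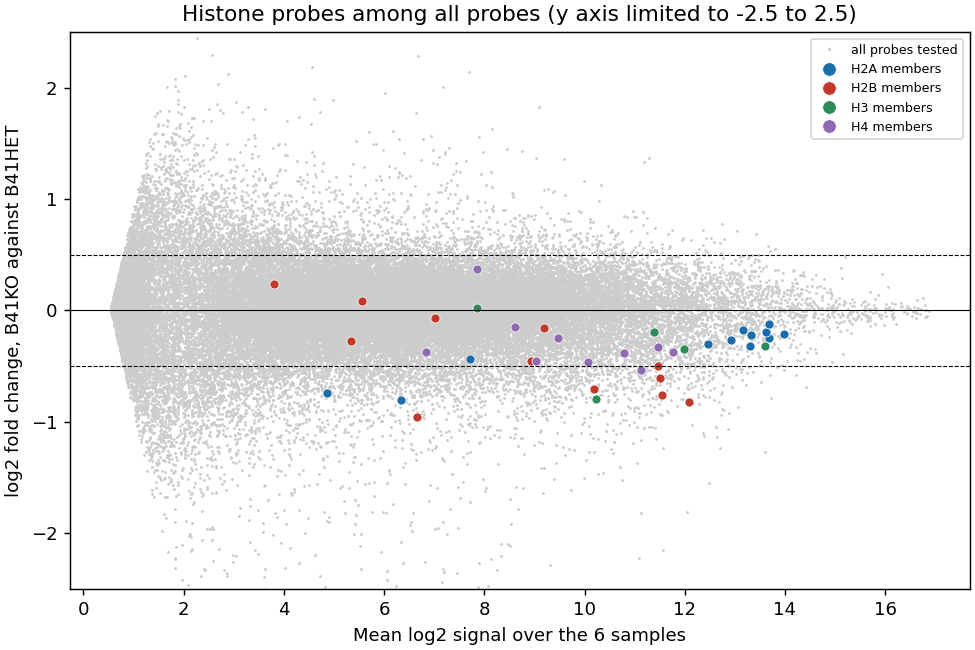
The mean log2 signal of each probe over the 6 samples (x axis) is plotted against its log2 fold change in B41KO relative to B41HET (y axis), with all probes tested in grey, histone probes coloured by class and dashed lines at the fold threshold of 0.5 in either direction. All 28 histone probes well above background with a mean of 8 or more lie below 0.

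By position, all 9 called probes belong to the large histone cluster on chromosome 13. There, 32 probes were well above background, with a median of -0.35, and every B41KO sample lay below every B41HET sample at 28 of them. The smaller cluster on chromosome 3 had 7 such probes, 0 of them called by limma (2 at an unadjusted p under 0.05) and 4 without overlap and lower, with a median of -0.12. Within chromosome 13 the genes form 3 blocks with wide gaps between them. They held 2 called of 12 probes, 0 of 3 (3 at an unadjusted limma p under 0.05) and 7 of 17, with medians of -0.35, -0.21 and -0.45. Of all probes, 3.34% were called lower, 12.1% were lower at an unadjusted limma p under 0.05 and 15.2% were lower without overlap. The difference between clusters or blocks was not tested.

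Genes that only an older Hist name covers were left out by the rule under current symbols, and had 11 probes. Among them were the linker histones H1, which bind DNA between nucleosomes. H1f3 was called lower, with 9.64, 9.82 and 9.54 in B41HET and 9.02, 9.02 and 9.01 in B41KO (-0.65 ± 0.09, SE, adjusted p = 0.0197). H1f2 had a change of -0.38 (adjusted p = 0.055) and H2aw, an H2A gene on chromosome 11, one of -0.50 (adjusted p = 0.0533). H1f1, H1f4, H1f5 and H1f6 had changes of -0.11, -0.07, 0.07 and 0.19 and were not called.

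The list of linker H1 and replication-independent variants held 19 genes, each taken by its brightest probe. Of these 3 were called lower and 0 higher (7 and 2 at an unadjusted limma p under 0.05), with a median of -0.10. The count fell to 1 without B41HET replicate 3 or B41KO replicate 2, and to 0 when any other sample was left out. Beside H1f3 the called genes were Cenpa, the H3 variant of centromeres (-0.57, adjusted p = 0.0358), and Macroh2a1, an H2A variant (-0.55, adjusted p = 0.0159). The other 3 probes of Macroh2a1 were not called. H1f0 and H1f8, also linker histones, had changes of 0.70 (adjusted p = 0.0642) and 0.32 (adjusted p = 0.206) and were not called. At both, every B41KO sample lay above every B41HET sample. H3f3a and H3f3b, both encoding H3.3, had changes of -0.10 (adjusted p = 0.647) and -0.37 (adjusted p = 0.0495, short of the fold threshold) and were not called. The other 2 probes of H3f3a had changes of 0.10 and 0.38 (adjusted p = 0.538 and 0.182), the latter with every B41KO sample above every B41HET sample, and the other probe of H3f3b one of -0.39 (adjusted p = 0.0913).

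The list of histone gene transcription and mRNA processing held 23 genes, of which 2 were called lower and 0 higher (7 and 1 at an unadjusted limma p under 0.05), with a median of -0.11. The number called lower was 2 without B41HET replicate 3 and 1 when any other sample was left out. Slbp, which binds the stem-loop of histone mRNAs, gave 8.95, 8.64 and 8.92 in B41HET and 8.26, 8.20 and 8.15 in B41KO (-0.63 ± 0.11, SE, adjusted p = 0.0303). Its other probe had a change of -0.37 and was not called (adjusted p = 0.149). Pou2f1, an octamer-binding factor, gave 12.09, 12.05 and 11.97 against 11.42, 11.44 and 11.39 (-0.62 ± 0.07, SE, adjusted p = 0.0109). Its other probe, of much weaker signal, had a change of 0.06 (adjusted p = 0.878). Npat, the coactivator of histone genes, had a change of 0.05 (adjusted p = 0.901).

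Among 22 histone chaperones, which carry histones to DNA, 2 were called lower and 0 higher (5 and 3 at an unadjusted limma p under 0.05), with a median of -0.11. The count was 1 without B41HET replicate 3 or B41KO replicate 2 and 0 when any other sample was left out. The called genes were Hira, which deposits H3.3 (-0.81, adjusted p = 0.0194), and Supt16, a subunit of FACT (-0.65, adjusted p = 0.0401). Among 32 S phase genes, 3 were called lower and 0 higher (8 and 2 at an unadjusted limma p under 0.05), with a median of -0.11. The count was 1 when any 1 of the B41HET replicates was left out, 3 without B41KO replicate 1 and 2 without B41KO replicate 2 or 3. Top2a, a DNA topoisomerase of dividing cells, gave 5.38, 5.10 and 5.32 in B41HET and 3.99, 4.34 and 4.27 in B41KO (-1.07 ± 0.13, SE, adjusted p = 0.0133), and its other probe fell by 1.66. Ccna2, the S and G2 cyclin, had a change of -0.63 (adjusted p = 0.00995) at one probe and -0.14 (adjusted p = 0.702) at the other. Mki67 (-0.42, adjusted p = 0.0713) and Pcna (-0.29, adjusted p = 0.135) were not called.

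**Figure D3:**
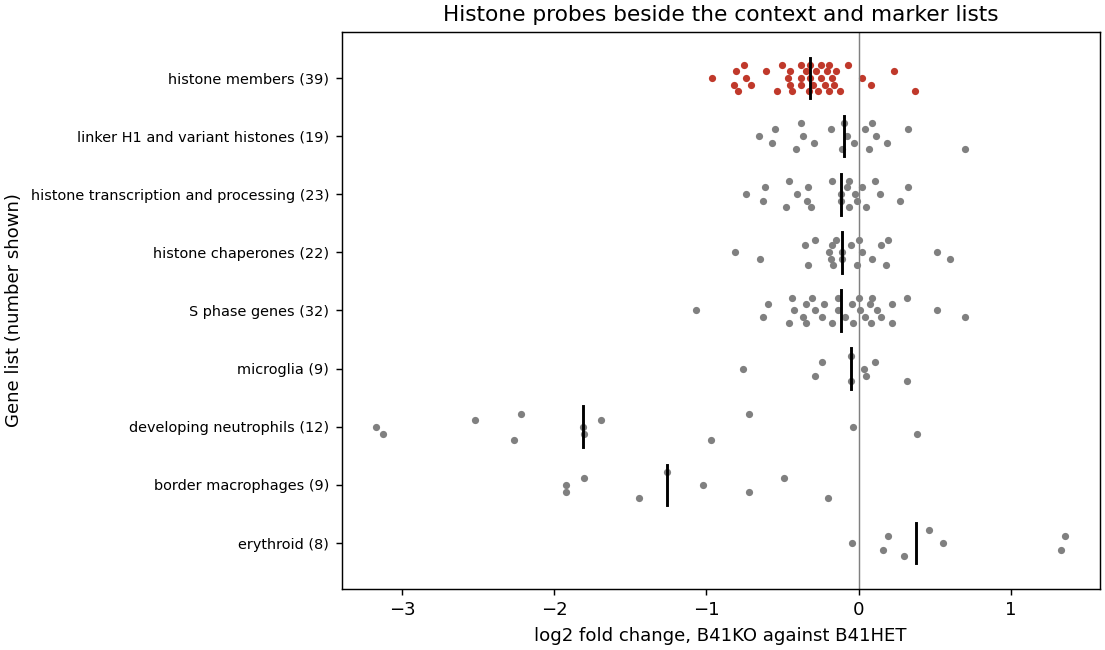
The log2 fold change in B41KO relative to B41HET (x axis) is shown for the 39 histone probes well above background (red) and for the brightest probe of each gene of 8 other lists (grey), with the number of points in brackets and the median as a black line. The histone median is -0.32, that of each of the 4 chromatin and S phase lists lies between -0.11 and -0.10, and that of the developing neutrophil markers is -1.81.

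Markers of other cells moved between the same groups, and their part in the histone result was not tested. Markers of microglia were present on all arrays for 9 of 9 genes, with 1 called lower, Fcrls (-0.76), and a median of -0.05, and their summed signal ranged from 17.00 to 17.15 (log2) in B41HET and from 16.99 to 17.08 in B41KO. Of 12 markers of developing neutrophils, all of them well above background on all arrays, 10 were called lower, with a median of -1.81 and a summed signal of 14.85 to 15.03 in B41HET and 12.55 to 12.64 in B41KO. Ngp, a granule protein of neutrophil precursors, had a change of -3.13. Elane and Mpo, granule enzymes of early precursors, were the 2 not called, with -0.04 (adjusted p = 0.917) and 0.39 (adjusted p = 0.157). At Mpo every B41KO sample lay above every B41HET sample. Prtn3 and Ctsg, granule enzymes of the same stage, were called lower, with -1.81 (adjusted p = 0.00209) and -0.97 (adjusted p = 0.0124).

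Of 9 border macrophage markers, 5 were called lower, with a median of -1.26 and a summed signal of 11.26 to 11.37 in B41HET and 10.68 to 10.83 in B41KO. The count was 4 without B41KO replicate 1 or 3 and 3 when any other sample was left out. Lyve1 and Mrc1 were well above background on 3 B41HET arrays and 0 B41KO arrays and were not called (adjusted p = 0.0974 and 0.0745). Stab1 had the strongest signal of the 9 and was not called, with -0.49 (adjusted p = 0.028), short of the fold threshold. Of 8 erythroid markers, 3 were called higher, with a median of 0.38 and a summed signal of 15.06 to 15.15 in B41HET and 15.46 to 15.51 in B41KO. Of 6 endothelial markers, 2 were called lower, Ly6c1 and Pecam1, while Cdh5, Flt1 and Tek were not well above background in any sample. Cldn5 was well above background in every sample and was not called, with overlapping groups (-0.13, adjusted p = 0.473). The summed signal ranged from 10.16 to 10.29 in B41HET and from 8.63 to 8.80 in B41KO.

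Of 12 B lineage markers, 1 was called lower (Cd79a) and 1 higher (Rag2, not well above background in any sample), with a summed signal of 10.56 to 10.73 against 10.66 to 10.67. Ms4a1 and Rag1 were not well above background either. For 5 oligodendrocyte markers the median change was -0.09, and the summed signal was 10.47 to 10.54 in B41HET and 10.50 to 10.75 in B41KO. Of 6 markers of T and NK cells, 0 were called by limma and 1 was lower at an unadjusted p under 0.05, with a summed signal of 8.77 to 8.84 against 8.77 to 8.88.

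Over the whole array 1892 probes were called lower and 975 higher, so 66% of calls were lower. The share was 53.9% when arrays were aligned at the 75th percentile rather than quantile normalized, and the median of all probes then moved from 0.02 to 0.13. Under that shift 38 of the 43 histone probes were fitted below 0, 8 were called lower and the median was -0.33. Between 39654 and 42719 probes (70.1% to 75.5%) were well above background on each array and no saturated spot was recorded. Precision is limited by how few arrays there are. The probes of Bhlhe41 had changes of 0.33 (adjusted p = 0.203) and 0.38 (adjusted p = 0.33). Where these probes lie relative to the inserted cassette was not tested, so the values do not check the labels.

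**Figure D4:**
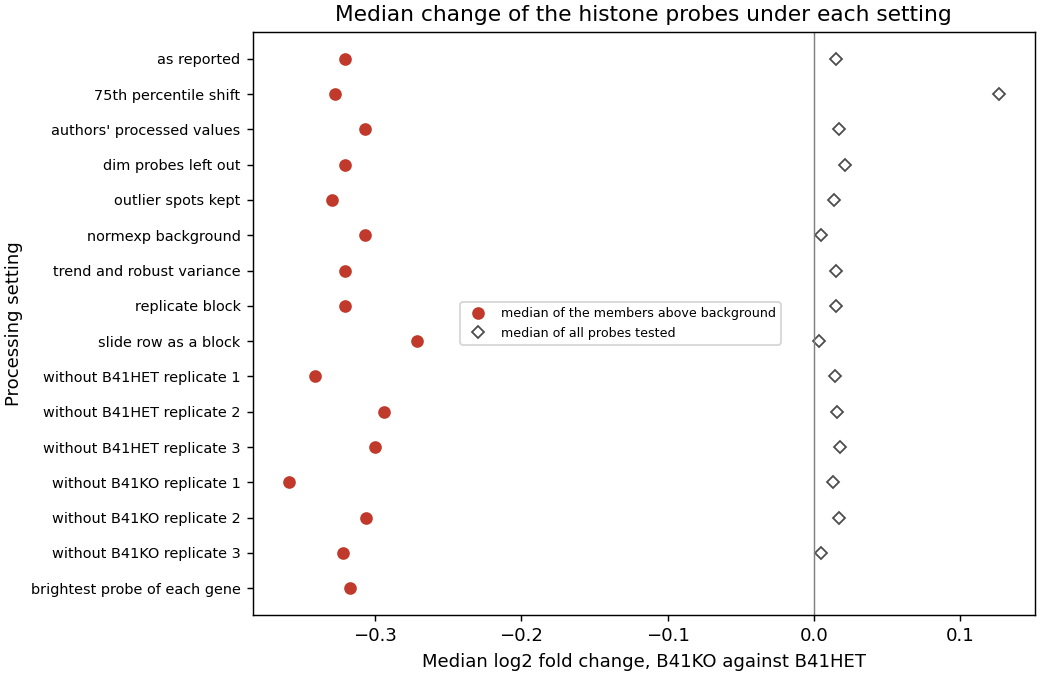
The median log2 fold change of the histone probes well above background (red) and of all probes tested (open diamonds) is plotted for each processing setting, with no diamond for the setting that keeps the brightest probe of each gene. The histone median lies between -0.36 and -0.27 in each setting shown, and the median of all probes between 0.0035 and 0.13.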

How the data were processed

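Labelled cRNA of 6 samples of sorted microglia was hybridised in 1 colour to SurePrint G3 Mouse arrays. The authors deposited, per the file headers, scanner output made with Feature Extraction 11.5.1.1 (probe design on mm9), from which the background-subtracted intensity of each spot was used. They also deposited a table of processed log2 values, described in the Methods as quantile normalized. In that table the columns shared their quartiles to within 0.00112 with medians of 5.11, values ranked as in the array's own scanner intensity (Spearman 1), and it served as an alternative only.

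Control spots, 3671 on each array, were removed, and the 95 to 136 spots that the scanner software flagged as outliers were set to missing. Quantile normalization of the log2 intensity followed, and replicate spots were averaged to 1 value for a probe. Probes were named by accession through a RefSeq table, which named 33767 of 56605 (59.7%). B41KO was compared with B41HET by lmFit and eBayes of limma 3.58.1 in R 4.3.3 over all 56601 probes with at least 2 values per group, with Benjamini-Hochberg adjustment. The thresholds on adjusted p (0.05) and log2 fold change (0.5) follow the Methods, as do the normalization and the tool. The fit was tested on simulated data. The labels give no pairing of samples by replicate number, and the main fit used none.

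The histone probes and the gene lists were chosen with earlier results of these data known. Named in the text were every called probe, the probe of strongest signal in each class (a choice by signal, since probes differ in response), genes whose probes differed in call, head-to-head pairs, Bhlhe41, the called genes of each list (at most 5), and Slbp, Npat, Pcna, Mki67 and Top2a. Some called genes of the lists are not reported here. Other probes, H4c8 among them, were named after their values were seen so that every histone gene is accounted for. Linker H1 genes carry current symbols that the rule does not cover and are given as context. Alternatives were a 75th percentile shift, the authors' processed values, dim probes left out, outlier spots kept, normexp background (offset 50), trend and robust variance, slide row or replicate number as a block, omission of each sample, no fold threshold and the brightest probe of each gene. After the data were seen, genes with older names were added and probes below background were kept.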

Additional observations from a re-analysis of the deposited data

How the results depend on the processing

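The fitted change was below 0 at 37 of 41 histone probes with dim probes left out and at 38 to 41 of 43 under the other alternatives that refit the model, and 0 histone probes were called higher by limma in these fits, with 0 to 2 higher at an unadjusted p under 0.05. The number called lower was 8 with the 75th percentile shift, 7 with the authors' processed values, 10 with dim probes left out, 9 with outlier spots kept, 10 with trend and robust variance and 8 with the brightest probe of each gene. It was 15 without a fold threshold and 1 when slide row was blocked, a fit in which B41KO replicate 1 is the only B41KO sample compared, where the median was -0.27 and 260 probes were called lower and 184 higher over the array. Adding the genes with older names gave 10 calls and a median of -0.30. With normexp background 8 histone probes were called lower, all of them among the 9, and 1084 probes were called lower and 417 higher in all. Leaving out 1 sample gave 2 to 7 histone probes called, medians of -0.36 to -0.29, and 550 to 1024 probes lower and 242 to 513 higher in all, with fewer samples in the fit. Calls of H2bc14 and H2bc4 were lost under 2 of 15 alternatives, of H2bc15 under 3, of H3c7 under 5, of H2ac7 under 8, of H4c4 under 9 and of H2bc1 under 11. The 2 H2bc3 probes lost theirs under 3 and 8. Otherwise the cause of these changes was not tested. Probes not well above background carry no usable level.

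With the replicate number as a block, 40 probes were called lower and 2 higher in all, and 0 histone probes were called by limma (28 lower and 1 higher at an unadjusted p under 0.05), with a median of -0.32. Deviations from the group means of same-numbered samples correlated across probes at 0.13, -0.0066 and 0.17. B41HET replicates 1 and 3 each correlated best with the B41KO sample of the same number, and B41HET replicate 2 with B41KO replicate 3 (0.031). Differently numbered samples correlated at -0.19 to 0.084. These small values cannot decide whether same-numbered samples were handled together, and the labels give no pairing.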
